A study of Homo sapiens with 9 samples.

Results

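Genes for ion channels and neurotransmitter receptors were taken from the deposited gene list as the rows whose Ensembl identifier belongs to a protein-coding gene with a symbol starting in KCN, CACN, GRIA, GRIK, GRIN, GRID, GRM, GABR, CHRN, CHRM, TRPC, TRPM or TRPV, or in SCN followed by a digit, with GRINA left out. This rule found 75 of the 9588 listed genes, and all 75 had a nascent RNA value. One of them, GRID2IP, encodes a scaffold protein that binds the delta glutamate receptor and is no receptor subunit. The series is a ChIP-seq study of H2BK120Ub, the ubiquitylated form of histone H2B that marks transcribed genes, in RPE1 cells, an established line of hTERT-immortalized retinal pigment epithelium. Chromatin came from mock-treated cells (2 libraries and 1 input) and from cells given UV-C at 9 J/m2 and left for 3 h (2 libraries) or 24 h (4 libraries). All 9 libraries came from 1 genotype of this line, in which Cas9 can be induced and the puromycin resistance gene and a further gene are knocked out, so the mock cells carry these changes too. The list itself holds 1 BrU-seq value for each gene, from an earlier experiment in unirradiated WT RPE1 cells. In BrU-seq, cells are briefly given bromouridine and the RNA that takes it up is sequenced, so reads report on RNA made during the labelling. The value is their density over the 3 kb that follow each TSS. No ChIP-seq signal is described here, and no difference between mock and irradiated cells. With 1 pooled value a gene, nothing below has a replicate error, and no test was run.

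Ion channels are membrane proteins that let selected ions cross along their gradients. Potassium channels set the resting potential and end electrical signals, sodium channels carry the fast upstroke of action potentials, and calcium channels turn voltage into calcium entry. Ionotropic receptors for glutamate, GABA and acetylcholine open their own pore when a transmitter binds, metabotropic receptors act through G proteins, and TRP channels respond to lipids, calcium, temperature or chemical stimuli. Many of these genes are best known from neurons and muscle, and several are long, with distant promoters and large introns. Length matters for the profiles of the study, which were drawn over genes of at least 50 kb and at least 100 kb chosen among the 3000 genes with the highest density.

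The GENCODE v44 annotation holds 225 protein-coding genes that satisfy the rule, of which the 75 are 33.3%. For all protein-coding genes of the annotation this share was 30.1% (6037 of 20033). The potassium channel genes made up 35 of the 75, followed by 12 GABA-A receptor genes, 9 voltage-gated sodium channel genes, 6 calcium channel genes, 5 nicotinic receptor genes, 4 TRP genes and 4 genes named for glutamate receptors. No AMPA receptor gene and no muscarinic receptor gene was in the list. All 75 genes were listed with the coordinates of their canonical transcript, whose exon 1 therefore opens at the listed TSS. In 22 of the 75, GENCODE annotates another start more than 1 kb further upstream. Such genes include KCNK2, KCNMB3, GABRB1, GRIK2 and KCNH5, whose densities below cover the listed TSS only. Of these 22 genes, 12 were listed at 0, a share close to the 43 of all 75 so listed. The share of such upstream starts over all listed protein-coding genes was not counted.

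The promoter sequences below come from genes of high density and from long genes listed at 0. They are the 250 bases before the listed TSS on the strand of the gene, from RefSeq on GRCh38.p14, in lower case with every CpG dinucleotide in capitals. The RefSeq table matched 53 of the 75 genes, 47 of them at the listed TSS, and the choice was made among these 47, with chromosomes 8 and 18 passed over. The 3 with the highest density are SCN9A (chr2:166375945-166376194, minus strand), KCNN4 (chr19:43780974-43781223, minus strand) and KCNK2 (chr1:215082487-215082736, plus strand).
SCN9A: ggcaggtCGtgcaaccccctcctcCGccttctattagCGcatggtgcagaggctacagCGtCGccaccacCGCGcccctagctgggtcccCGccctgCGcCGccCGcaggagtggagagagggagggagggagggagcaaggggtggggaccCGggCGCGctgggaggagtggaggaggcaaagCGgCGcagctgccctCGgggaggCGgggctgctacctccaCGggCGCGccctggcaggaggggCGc
KCNN4: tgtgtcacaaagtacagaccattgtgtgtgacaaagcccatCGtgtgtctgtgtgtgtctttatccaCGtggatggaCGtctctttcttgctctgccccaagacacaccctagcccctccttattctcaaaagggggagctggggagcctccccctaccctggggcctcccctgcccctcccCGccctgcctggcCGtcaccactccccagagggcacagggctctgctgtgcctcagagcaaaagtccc
KCNK2: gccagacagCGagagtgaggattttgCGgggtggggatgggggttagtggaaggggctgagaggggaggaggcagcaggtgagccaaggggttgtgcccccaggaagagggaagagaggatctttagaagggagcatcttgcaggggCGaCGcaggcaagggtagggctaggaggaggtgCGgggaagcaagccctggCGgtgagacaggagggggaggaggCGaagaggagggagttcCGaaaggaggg
The 3 longest listed at 0 are GABRB2 (chr5:161546726-161546975, minus strand), CHRNA7 (chr15:32030265-32030514, plus strand) and GRM4 (chr6:34146088-34146337, minus strand).
GABRB2: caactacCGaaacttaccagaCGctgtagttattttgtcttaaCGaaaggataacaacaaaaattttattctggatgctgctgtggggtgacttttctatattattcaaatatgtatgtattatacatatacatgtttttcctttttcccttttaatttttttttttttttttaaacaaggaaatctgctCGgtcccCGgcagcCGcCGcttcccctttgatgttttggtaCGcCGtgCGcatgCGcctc
CHRNA7: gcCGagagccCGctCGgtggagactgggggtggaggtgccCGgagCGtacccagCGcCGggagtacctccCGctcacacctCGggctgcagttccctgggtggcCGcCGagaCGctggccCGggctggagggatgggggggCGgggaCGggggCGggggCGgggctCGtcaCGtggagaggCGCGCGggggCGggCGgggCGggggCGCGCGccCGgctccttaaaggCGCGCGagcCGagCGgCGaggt
GRM4: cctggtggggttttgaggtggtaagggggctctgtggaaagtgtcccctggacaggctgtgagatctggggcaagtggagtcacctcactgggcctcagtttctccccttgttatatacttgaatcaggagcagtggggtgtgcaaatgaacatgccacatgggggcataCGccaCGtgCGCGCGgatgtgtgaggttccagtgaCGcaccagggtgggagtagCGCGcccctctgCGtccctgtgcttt
Each set of 3 spans a wide range. The SCN9A sequence holds 22 CpG at 74% GC, that of KCNN4 holds 5 at 60% GC and that of KCNK2 holds 8 at 63.6% GC. Among the genes listed at 0, the CHRNA7 sequence holds 35 CpG at 79.2% GC, more than any of the 3 transcribed genes, while GABRB2 has 11 at 38% GC and GRM4 has 9 at 58.8% GC.

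Most channel and receptor genes of the list had little or no nascent RNA in these cells. A density above 0 was listed for 32 of the 75 (42.7%), against 58.7% of all listed genes with a value and 70.0% of the listed protein-coding genes. Only 7 of the 75 (9.33%) were among the 3000 highest, against 31.6% and 45.7%. With 2500 or 3500 genes ranked in place of 3000, the share of members was 4.0% or 17.3%. Where they were above 0 the values were low too, with a median of 3.47 (quartiles 0.206 and 13.8), against 36.5 (quartiles 4.81 and 85.0) over the listed protein-coding genes above 0. The list runs up to 12067. A density over 5 was reached by 14 members (18.7%), against 52.4% of protein-coding genes.

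The values above 0 come in steps. All 5579 values above 0 in the list were whole multiples of 0.0433, within 0.01 steps, and what 1 step stands for is not given in the sources used here. Of the members above 0, 8 lay at 4 steps (0.173) or fewer. Values this close to 0 are given without an order among them. Because the depth of the BrU-seq libraries is not in the list, a gene at 0 is described as listed at 0 and not as silent.

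**Figure D1:**
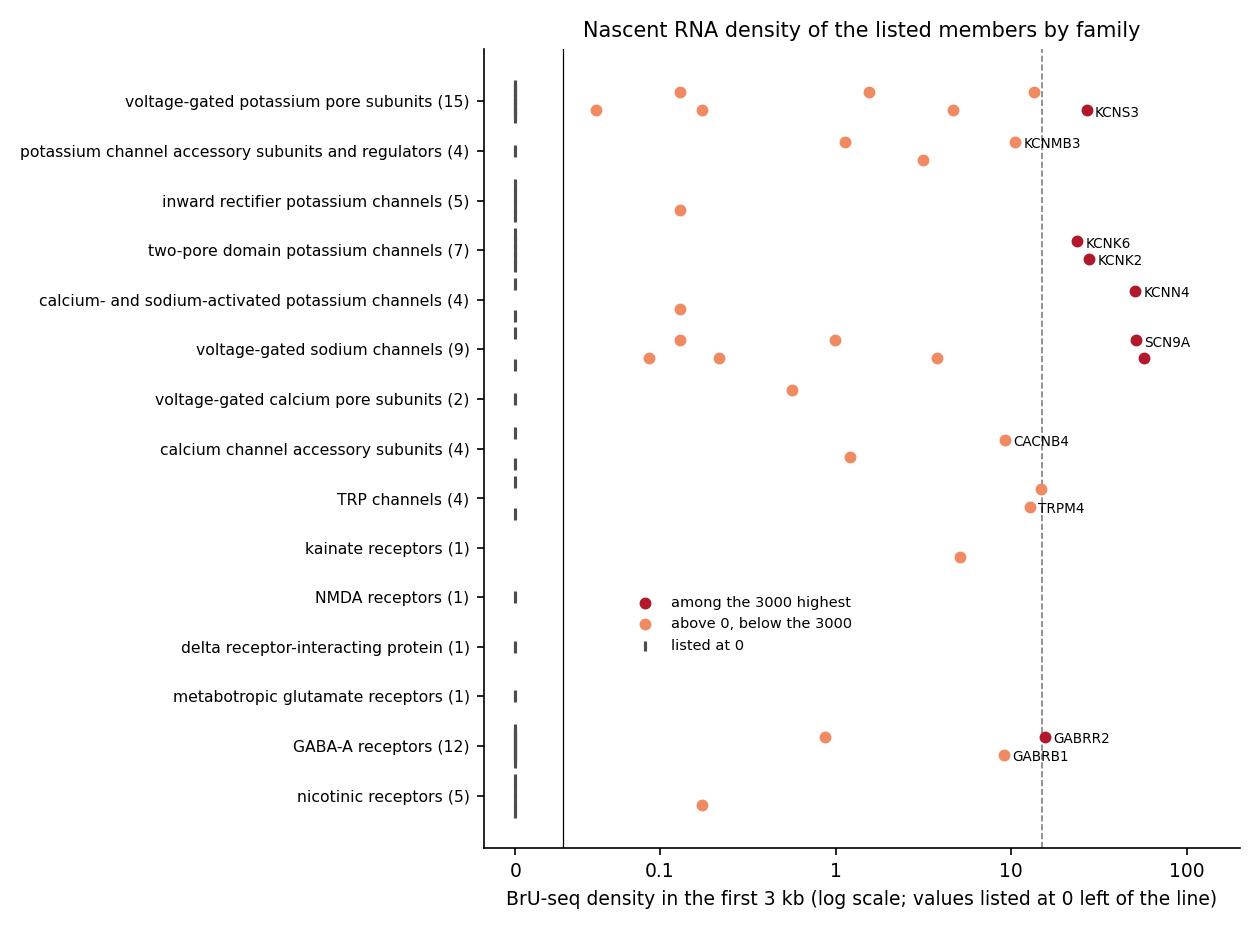
BrU-seq density in the first 3 kb (log axis) for each of the 75 genes, 1 row per family with its number of genes in brackets, points coloured by rank and short dark bars at the left for genes listed at 0. The dashed line marks 15.04, the lowest density among the 3000 highest genes of the list, and 7 genes lie to its right, with GABRR2 at 15.56 the nearest to it.

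Among potassium channel genes, 15 of 35 were above 0 and 4 were among the 3000 highest, with a median of 3.16 over those above 0. The highest was KCNN4 (ENSG00000104783) at 50.61, rank 1808 in the list. KCNN4 encodes the intermediate-conductance calcium-activated potassium channel, which is known outside the nervous system from red blood cells, T cells and epithelia. It is a short gene of 14441 bp with 9 exons at chr19:43766533-43780973 on the minus strand. The other 3 genes of the calcium- and sodium-activated family are all longer and stood near or at 0. KCNN3, a small-conductance channel of 172827 bp, was listed at 0.13, and KCNT1, a sodium-activated channel, and KCNU1, a channel of sperm, were both listed at 0.

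The K2P channels carry background potassium currents, and their subunits hold a pair of pore domains. Of 7 listed K2P genes, 2 were above 0, and both were among the 3000 highest. KCNK2 (ENSG00000082482), a channel gated by membrane stretch and lipids, stood at 27.69 (rank 2523) and covers 154354 bp at chr1:215082737-215237090. KCNK6 (ENSG00000099337), a weakly rectifying channel, stood at 23.75 (rank 2673) and covers 12232 bp at chr19:38319845-38332076. These are the longest and the shortest gene of the family. KCNK3, KCNK5, KCNK9, KCNK10 and KCNK18 were listed at 0. For KCNK2, an annotated start lies 76962 bp upstream of the listed TSS. It is the only start more than 1 kb upstream among the 7 highest genes.

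Of 15 voltage-gated potassium pore subunits, 7 were above 0, with a median of 1.56. KCNS3 (ENSG00000170745) was the highest at 26.91 (rank 2559). It encodes an electrically silent subunit that forms no channel alone and modifies the channels of other pore subunits. It covers 54292 bp at chr2:17878667-17932958, with 3 exons and a first intron of 71.6% of its length. The other silent subunits of the list, KCNS1, KCNS2, KCNV2 and KCNG4, were all listed at 0. KCND1, an A-type channel, stood at 4.68, and KCNH5 of the ether-a-go-go group at 1.56. KCNC1, which serves fast-spiking neurons, stood at 0.173 and KCNQ3, a subunit of the M current, at 0.13. KCNH2, the channel of late cardiac repolarisation, and KCNA1, KCNA4 and KCNA7 of the Shaker group were listed at 0. The family runs in length from KCNA7 at 5303 bp to KCNQ3 at 360235 bp, and neither end of this range was among the higher densities.

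The accessory subunits of potassium channels showed values in a middle range. KCNMB3 and KCNMB4, both beta subunits of the large-conductance calcium-activated channel, stood at 10.49 and 3.16, and KCNIP3, a calcium-binding partner of A-type channels and the longest of the 4 at 88731 bp, at 1.13. KCNE4, a small regulatory subunit and with 3448 bp the shortest of the 75 genes, was listed at 0. Among the 5 inward rectifiers only KCNJ1, the channel of potassium secretion in the kidney, was above 0, at 0.13. KCNJ16, the longest at 60384 bp, KCNJ15, KCNJ12 and KCNJ18, the shortest at 12090 bp, were listed at 0. KCNJ12 and KCNJ18 lie 272652 bp apart on chromosome 17 and encode near-identical channels, but their first introns differ, at 31605 bp and 3268 bp. The authors kept 1 position for reads that align to up to 20 places. Whether this touched the first 3 kb of either gene was not tested.

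Sodium channel genes had the largest spread of any family. Of 9 genes, 7 were above 0 and 2 were among the 3000 highest, and their median over those above 0 was only 0.997. SCN9A (ENSG00000169432), known from pain-sensing neurons, stood at 51.39 (rank 1784) and covers 180760 bp at chr2:166195185-166375944 on the minus strand with 27 exons. SCN11A, also of pain-sensing neurons and the longest of the family at 206181 bp, stood at 3.77. SCN1A and SCN2A, the main channels of central neurons, stood at 0.217 and 0.0867. SCN7A, an atypical channel that senses extracellular sodium, and SCN10A were listed at 0. The beta subunits SCN2B, the shortest at 13834 bp, and SCN4B stood at 0.997 and 0.13.

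SCN9A lies in a cluster with relatives of far lower density. On chromosome 2, SCN9A at 51.39, or 1186 steps, is flanked by SCN1A at 5 steps, 67164 bp away, and by SCN7A listed at 0, only 27628 bp away, all on the minus strand. This cluster spans 508437 bp. On chromosome 3, SCN10A listed at 0 lies 29546 bp from SCN11A at 87 steps. The pair of beta subunit genes on chromosome 11 lies 9982 bp apart, with SCN2B at 23 steps and SCN4B at 3. Close neighbours of this family thus held values many steps apart.

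Of the annotated calcium channel genes, 2 of 10 pore subunits and 4 of 16 accessory subunits were in the list, and none was among the 3000 highest. Of the pore subunits, CACNA1I, a low-voltage-activated channel with 37 exons over 118983 bp, stood at 0.563, and CACNA1F, the channel of photoreceptor synapses, with 48 exons over 28278 bp, was listed at 0. Of the accessory subunits, CACNB4, a cytoplasmic beta subunit and the longest of the 4 at 266274 bp, stood at 9.19 and CACNG6 at 1.21. CACNG5 and CACNG1, the latter the gamma subunit of skeletal muscle and the shortest at 12244 bp, lie 149802 bp apart on chromosome 17 and were both listed at 0. Of 4 TRP genes, 2 were above 0 and none was among the 3000 highest, whose lowest density was 15.04. TRPM4, a calcium-activated channel for monovalent cations, stood at 12.74. TRPV3, a warmth-sensitive channel of keratinocytes, and TRPV5, the channel of renal calcium uptake, were listed at 0.

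Receptor genes were mostly listed at 0. Of 12 GABA-A receptor genes, 3 were above 0. GABRR2 (ENSG00000111886), a rho subunit known from the retina, stood at 15.56, and covers 60836 bp at chr6:89254464-89315299 on the minus strand. GABRB1, a beta subunit and the longest of the family at 394881 bp, stood at 9.10, and GABRA4, an alpha subunit, at 0.867. These last 2 lie 37985 bp apart on chromosome 4, on opposite strands. The other 9 were listed at 0, among them GABRB2, a beta subunit of 258290 bp, GABRD, the shortest of the family at 11414 bp, and GABRP, GABRQ, GABRA5, GABRG1 and GABRR3. Of 5 nicotinic receptor genes only CHRNA6 was above 0, at 0.173, and it is the shortest of them at 16167 bp. CHRNA7, the longest at 142504 bp, was listed at 0, as were CHRNA1 of the muscle endplate, CHRNA2 and CHRNA9. Of the glutamate receptor genes, GRIK2, a kainate receptor subunit and with 676376 bp the longest of the 75, stood at 5.11, and the NMDA receptor gene GRIN2C and the metabotropic receptor gene GRM4 were listed at 0, as was GRID2IP.

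Channel and receptor genes were long for the list. Their median length was 50367 bp, against 20948 bp over all listed genes and 23033 bp over the protein-coding ones. At least 50 kb was reached by 39 of the 75 (52.0%), against 25.5% of all listed genes and 26.1% of the protein-coding ones. At least 100 kb was reached by 20 (26.7%), against 11.5% and 10.9%. Among families of at least 4 genes, the median length was lowest in the voltage-gated potassium pore subunits, at 17441 bp. It was 67759 bp in the GABA-A receptors and 119411 bp in the sodium channels. The highest was 122535 bp, in the 4 calcium- and sodium-activated potassium channels. The potassium channel genes as a whole had a median of 40505 bp.

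Length and a high density came together in few of them. Only 5 of the 75 genes were both at least 50 kb long and among the 3000 highest, among them SCN9A, KCNK2, KCNS3 and GABRR2. Of all listed genes 9.67% were so, and of protein-coding genes 14.3%. Among genes of at least 50 kb alone, that was 5 of 39 members, against 919 of 2448 listed genes and 861 of 1574 protein-coding genes. Of these 5, 3 were at least 100 kb long, SCN9A and KCNK2 among them. The other 2 of the 7 highest genes, KCNN4 and KCNK6, were under 15 kb and so outside both length classes. Genes above 0 were longer than genes at 0, with medians of 76131 bp and 40505 bp, and the same order held in protein-coding genes, with 26492.5 bp and 14798.5 bp. Across the 75 genes, which share 1 set of libraries, length and density had a Spearman's rho of 0.292, against 0.182 across 6020 protein-coding genes.

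**Figure D2:**
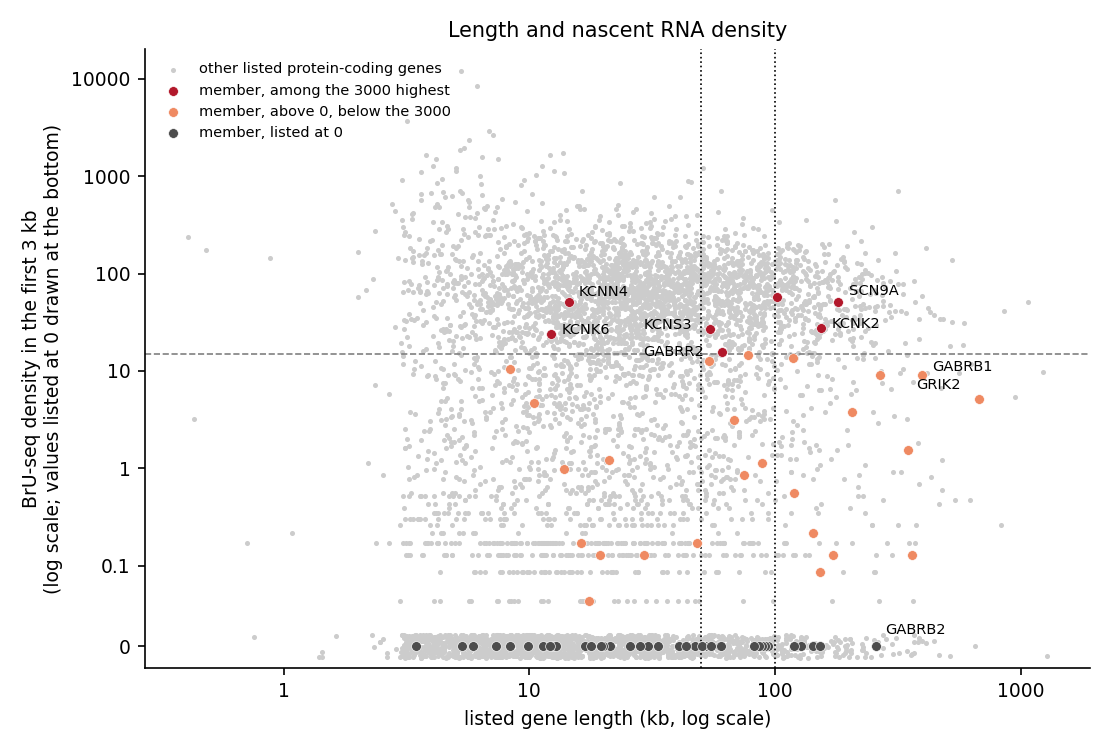
Listed length in kb and BrU-seq density in the first 3 kb, both on log axes, for the 75 genes in colour and the other listed protein-coding genes in grey, with genes listed at 0 at the bottom. Dotted lines mark 50 kb and 100 kb and the dashed line 15.04, and 5 coloured points lie above the dashed line at 50 kb or more.

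By length class, the share above 0 was 33.3% (8 of 24) under 20 kb, 25% (3 of 12) from 20 to 50 kb, 36.8% (7 of 19) from 50 to 100 kb and 70.0% (14 of 20) at 100 kb or more. In protein-coding genes the shares were 61.6%, 76.5%, 76.8% and 78.1% in the same classes. For the share above 0, the longest class thus lay nearest to its background, with a 95% Wilson interval of 48.1% to 85.5%. The interval treats genes as draws and covers counting error only. Of the 20 genes in this class, 6 were sodium channels, and 5 of the 14 above 0 had a density of at most 1. With a density above 1 in place of above 0, the share fell to 45.0%, against 68.5% in protein-coding genes of this length. Only 3 of the 20 were among the 3000 highest (15%), against 55.3%. In the 3 shorter classes, from the shortest up, this share was 8.33%, 0% and 10.5%, against 35.8%, 53.3% and 54.4%. By this measure the class under 20 kb lay nearest to its background.

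**Figure D3:**
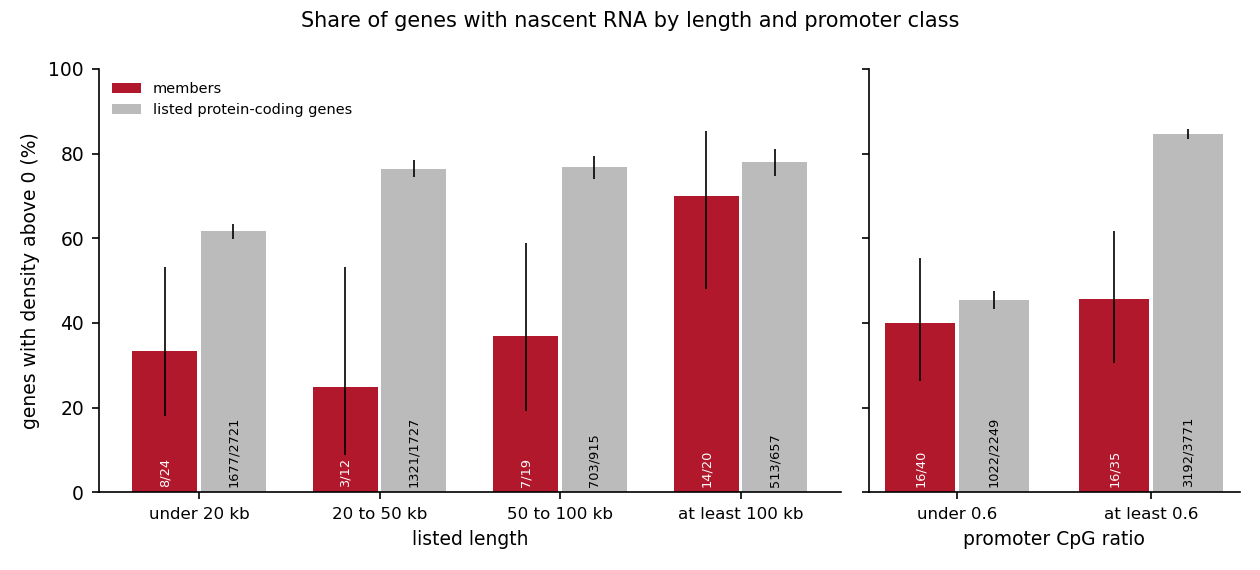
Share of genes with a density above 0, in percent, by listed length (left) and by promoter CpG ratio (right), for the 75 genes in red and for listed protein-coding genes in grey, with the counts written in the bars and 95% Wilson intervals as lines. The red bars stand at 33.3%, 25%, 36.8% and 70.0% over the length classes, and at 40% and 45.7% for CpG ratios under 0.6 and of at least 0.6, where the grey bars stand at 45.4% and 84.6%.

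The structure of the genes varied more between families than the median shows. The median was 9 exons per canonical transcript, against 7 in protein-coding genes, with 27 in the sodium channels and 9.5 in the GABA-A receptors. KCNK3 and KCNK9 are among the genes with 2 exons. Exons took up a median of 9.34% of the gene, against 11.9%, and the first intron 22.8%, against 19.9%. The number of exons rose with length across the 75 genes (Spearman's rho 0.599), as it did across 6037 protein-coding genes (0.611).

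UV-C joins neighbouring pyrimidines in DNA, and adjacent thymines are the commonest site of the resulting dimers, which stall RNA polymerase II when they lie on the transcribed strand. The reference genome (GRCh38) gave a median of 73.8 TT per kb on the transcribed strand of these genes, against 80.6 in protein-coding genes, and 83.2 on the coding strand, against 95.5. The median number of TT per gene was higher, at 2989, against 1750. It ran from 259 in KCNE4 to 74026 in GRIK2. The density of TT followed base composition closely, with a Spearman's rho of -0.96 with GC content across the 75 genes, whose median GC content was 47.2%. The sodium channels, at a median of 96.1 TT per kb, and the GABA-A receptors, at 101.7, lay above the other large families. SCN9A held 19812 TT, at 109.6 per kb. KCNN4 held 803 TT in its whole length, at 55.6 per kb. These are sequence counts and not measured damage.

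Promoter CpG content and nascent RNA showed little relation among these genes. The CpG ratio is the observed number of CpG over the number expected from the C and G content, here in the 300 bases from 250 before to 50 after the TSS. The median ratio was 0.606 in the 32 members above 0 and 0.573 in the 43 listed at 0. In protein-coding genes the corresponding medians were 0.812 and 0.350. With 500 bases each side of the TSS, the medians of the members lay further apart, at 0.618 above 0 and 0.496 at 0. A ratio of at least 0.6 was found in 35 members (44.5% of all listed genes and 62.6% of protein-coding genes reached it), and 16 of these 35 (45.7%, 95% Wilson interval 30.5% to 61.8%) were above 0, against 84.6% of protein-coding genes with such a ratio. Below 0.6, 16 of 40 (40%) were above 0, against 45.4%. The share was thus further below the background in the genes with a ratio of at least 0.6 than in those with a lower ratio. Genes at 0 with such a ratio were also common in other channel and receptor families of the list (12 of 24). Across the 75 genes, the ratio and the density had a Spearman's rho of 0.0271, against 0.535 across 6020 protein-coding genes. The larger families differed, on few genes each. The median ratio above 0 and at 0 was 0.704 and 0.317 in the sodium channels, but 0.601 and 0.844 in the K2P channels. It was 0.797 and 0.784 in the voltage-gated potassium pore subunits, and 0.563 and 0.587 in the GABA-A receptors.

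Single genes show both sides of this. Among those listed at 0, KCNJ12 had a ratio of 1.15, the highest of the 75, KCNA7 and KCNT1 each had 1.01, KCNK10 had 1.00 and GABRB2 had 0.976. All 5 had CpG at or near the expected number. Of the 43 listed at 0, 19 (44.2%) had a ratio of at least 0.6, against 32.1% of protein-coding genes listed at 0. Among the 7 highest genes, the ratio was 0.96 in KCNS3, 0.704 in SCN9A and 0.626 in KCNK2. It was only 0.575 in KCNK6, 0.276 in GABRR2 and 0.223 in KCNN4. KCNN4, with rank 1808 in the list, thus had one of the lower CpG ratios of the 75. In the wider window KCNK6 had 0.767 and SCN9A had 0.549, while GABRR2 and KCNN4 stayed low, at 0.215 and 0.221.

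**Figure D4:**
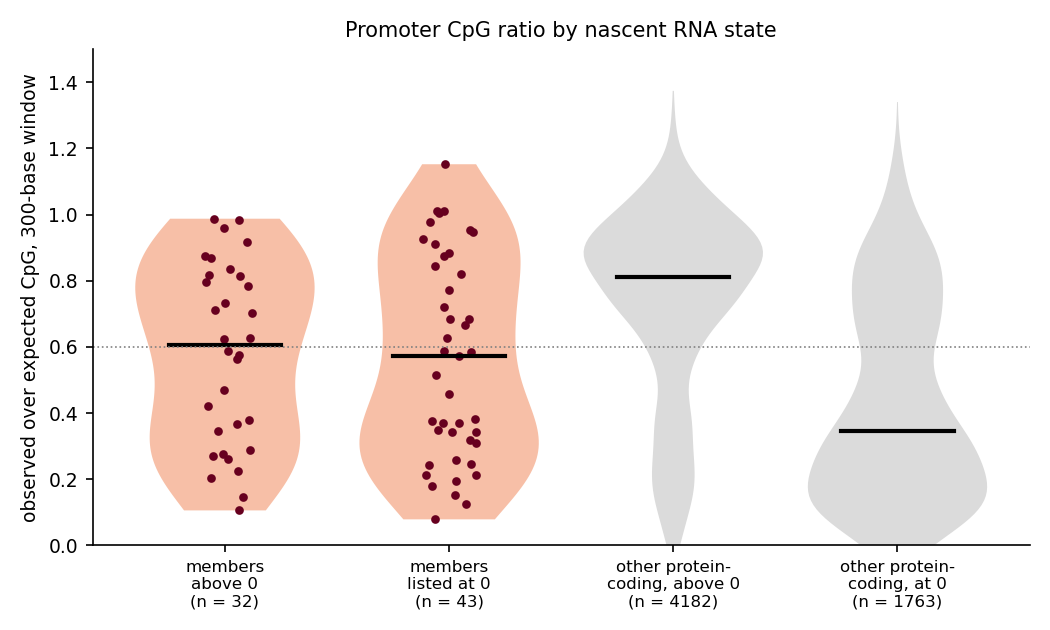
Promoter CpG ratio (observed over expected CpG in 300 bases) of the members above 0 and listed at 0, with a point per gene, and of the other listed protein-coding genes in the same states. Shapes show the distribution, black bars the median and the dotted line a ratio of 0.6, and the medians of the members stand at 0.606 and 0.573, close to each other, while the grey shapes lie apart.

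Core promoter letters were searched on both strands of the same 300 bases. TATAAA, the TATA box, was found in 3 of the 75 promoters (4.0%), against 10.8% of protein-coding genes. GGGCGG, the GC box, was found in 43 (57.3%), against 58.6%, and CCAAT in 20 (26.7%), against 36.6%. The GC box stood in 23 of the 43 promoters of genes listed at 0 (53.5%), against 37.6% of protein-coding genes at 0. In genes above 0 it stood in 62.5%, against 67.8%. A match of such short letters is a description of the sequence only.

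Some of these genes have close neighbours. KCND1, CACNB4 and KCNK10 were the 3 members within 2 kb of another listed gene, and CACNB4 and KCNK10 overlapped theirs. The first 3 kb overlapped an annotated gene on the other strand in 12 of the 75 (16%), against 11.1% of listed protein-coding genes, and on the same strand in 1 (1.33%), KCNA1, against 5.47%. It is not given in the sources used here whether the density of the list counted 1 strand or both. Of the 7 highest genes, only SCN9A had such an overlap, with the lncRNA gene SCN1A-AS1, and the first 3 kb of SCN1A at 0.217 overlapped the same lncRNA gene. Among the 43 genes listed at 0, 8 (18.6%) had an overlap on the other strand, 4 of them (9.30%) with a protein-coding gene, against 12% and 5.70% of protein-coding genes listed at 0. Upstream on the same strand, a protein-coding gene ended within 30 kb of the TSS in 24 of the 75 (32%), against 31.6% of listed protein-coding genes. It did so in 4 of the 7 highest, against 30.7% of protein-coding genes among the 3000, and in 9 of the 43 listed at 0 (20.9%), against 28.2%. These shares rest on few members, and over all 75 the upstream share was near the background. For GABRR2 this was UBE2J1, which ended 11325 bp upstream and had a density of 115.8, well above the 15.56 of GABRR2. For KCND1 at 4.68 it was GRIPAP1, 1875 bp upstream at 29.4, and for CACNB4 at 9.19 it was STAM2, 17756 bp upstream at 85.9. For SCN9A, by contrast, the upstream gene SCN7A was listed at 0. The part of neighbouring genes in these densities was not tested.

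The label of the cells was checked with marker genes. Of 13 markers of retinal pigment epithelium, 6 were in the list. OTX2, a transcription factor of this tissue, stood at 217.1 and MITF at 13.3, while RLBP1 stood at 1.26, LRAT at 0.997 and RPE65 at 0.26, and TTR was listed at 0. Of these 6, OTX2 was the only 1 among the 3000 highest, and MITF lay below their lowest density of 15.04. RLBP1, LRAT, RPE65 and TTR stood lower still, at 1.26 or less. Of 8 genes of cultured RPE1 cells, the 2 listed were both among the 3000 highest, TGFBI at 253.2 and COL1A1 at 25.8. Of neuronal markers, SNAP25 stood at 18.4 and DCX and STMN2 were listed at 0. Of muscle markers NEB stood at 0.26, with ACTN2 and TNNT2 at 0, and of 5 glial markers 1 was listed, below the 3000 highest. SNAP25 was thus the only listed marker of neurons, muscle or glia among the 3000 highest.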

How the data were processed

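H2BK120Ub ChIP-seq was performed in RPE1 cells (9 libraries). The analysis used the 1 table of the whole series, a gene list. It gives no library's depth, and ChIP-seq signal was not analysed here. The authors selected canonical genes of UCSC by spacing (2 kb) and size (3 kb) and updated them to GRCh38.p14. The deposited list also holds genes outside these limits, with a shortest listed length of 123 bp and some genes that overlap. The BrU column was deposited as a score, a read density in the first 3 kb in unirradiated WT cells, with no error. Per the study's methods, reads were trimmed (Trim Galore 0.6.5), aligned with STAR keeping the primary of up to 20 positions, and counted with HOMER 4.8.2 at default settings. The deposited lengths are in bp.

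Symbols, exons and neighbours came from GENCODE v44 and sequence from GRCh38. Values within 1e-06 of 0 were taken as 0. Positions are 1-based. Python 3.11.15, numpy 2.4.6, pandas 2.3.3, scipy 1.17.1 and matplotlib 3.10.9 were used, and the counting functions were tested on simulated data. The members, families and marker lists were chosen with earlier results of these data known. Named genes were every member among the 3000 highest, those next to that limit, the highest, longest and shortest of each family and members within 500 kb of a relative. Some genes are not reported here. Other members were named after their values were seen. Lists were described by counts and medians beside the same over all listed genes, since 1 pooled value a gene allows no test. Alternatives changed the limit for 0, the number ranked, length classes, CpG thresholds and windows, and the members counted.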

Additional observations from a re-analysis of the deposited data

How the results depend on the processing

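Of 38 alternatives to 12 results, 29 moved the value by less than its 95% interval or, for counts of genes, less than 1.5 times, and 9 moved it further. The share of members above 0 (42.7%) became 26.7% above a density of 1 and 18.7% above 5, and in genes of at least 100 kb it went from 70.0% to 45.0% and 35.0%. The share among the highest genes (9.33%) became 4.0% with 2500 genes ranked, and the members of at least 50 kb among them went from 5 to 2, or to 10 with 3500. The share of at least 100 kb (26.7%) became 16.0% at 150 kb. TT per kb went from 73.8 to 83.2 on the coding strand. Within their intervals, the share among the highest became 17.3% with 3500 genes ranked and the median density (3.47) became 11.6 over members above 1. A stricter limit lowers a share by its construction. Of these alternatives, 7 were chosen after seeing the data, among them both limits in genes of at least 100 kb, the CpG thresholds (45.2% and 44% above 0, against 45.7%) and leaving out the sodium channels (64.3%). No paired analysis was possible because the list holds 1 pooled value per gene and no result comes from a test. No replicate could be left out for the same reason. The unknown depth of the BrU-seq libraries limits the 8 members at 4 steps or fewer most.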

Other observations

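Genes of other channel and receptor families, such as chloride channels, ryanodine and purine receptors and receptors for serotonin or dopamine, lay near the members. Of 47 such genes in the list, 23 (48.9%) were above 0 and 7 (14.9%) among the 3000 highest, with a median of 3.64 above 0 and a highest value of 167.4. Their median length was 36549 bp, and 42.6% reached 50 kb and 21.3% reached 100 kb. Their median promoter CpG ratio was 0.765 above 0 and 0.626 at 0, and 12 of the 24 at 0 (50%) had a ratio of at least 0.6. Solute carriers, which move nutrients and ions across membranes without forming channels, stood higher. Of 126 such genes, 78 (61.9%) were above 0 and 49 (38.9%) among the 3000 highest, with a median of 22.6 above 0 and a highest value of 200.7. Their median length was 31232 bp, and 34.9% reached 50 kb and 10.3% reached 100 kb. Their median promoter CpG ratio was 0.805 above 0 and 0.429 at 0, and 18 of the 48 at 0 (37.5%) had a ratio of at least 0.6. These differences between lists were not tested.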
